A study of Homo sapiens with 26 samples.

Results

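The transcription factors described here are 10 that establish or maintain B-cell identity: PAX5, EBF1, BCL6, BACH2, SPIB, SPI1, IRF8, POU2AF1, POU2F2 and TCF3. They were chosen by name, and each was followed through every probe-set that the annotation of the array assigns to that gene alone, which gave 38 of 54675 probe-sets, for 10 of the 19775 genes measured in this way. A lead probe-set, the one of the highest mean log2 expression over all cell lines, was taken for each gene where 1 value per gene was needed. Affymetrix HG-U133 Plus 2.0 arrays gave the expression of 26 drug-naive human malignant B-cell lines harvested in exponential growth. The DLBCL group held 14 lines, among them MC-116, labelled an undifferentiated lymphoma, and the MM group held 12, among them AMO-1, labelled a plasmacytoma. Both were grouped as in the study. Every line was measured on 1 array (a cell line is therefore the replicate), and its response to cyclophosphamide (C), doxorubicin (H) and vincristine (O) is given in the labels as AUC0, the area enclosed by a dose response curve above 0, where a higher value means more resistance. KMS-12-BM and KMS-12-PE are sister lines of the same donor, so the MM lines are not all independent. The lines are established cultures, and none of them was treated before the RNA was taken.

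TCF3 and EBF1 act at the start of B-cell development and switch on PAX5, which commits a cell to the lineage and keeps genes of other lineages silent. In the germinal centre, BCL6 and BACH2 hold back the plasma cell programme, SPI1, SPIB and IRF8 bind composite sites of the ETS and interferon response type, and POU2F2 with its coactivator POU2AF1 binds the octamer motif of immunoglobulin promoters. Differentiation to a plasma cell, the normal counterpart of an MM cell, proceeds under PRDM1, XBP1 and IRF4, and PRDM1 represses PAX5 and BCL6. DLBCL derives from B cells of the germinal centre or shortly after it.

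Shown here are the promoters of the 5 factors picked because their lead probe-sets fell by more than 4 on the log2 scale in MM. Each is the 250 bases before a transcription start from RefSeq on GRCh38.p14, 5′ to 3′, and capitals mark the only motif found in them, the EBF motif of SPIB. They lie at chr9:37034269-37034518 on the minus strand for PAX5, chr5:159097957-159098206 on the minus strand for EBF1, chr3:187745469-187745718 on the minus strand for BCL6, chr19:50418688-50418937 on the plus strand for SPIB and chr16:85902580-85902829 on the plus strand for IRF8. BCL6 and IRF8 each had another window at another start, which is not printed here.
PAX5 promoter: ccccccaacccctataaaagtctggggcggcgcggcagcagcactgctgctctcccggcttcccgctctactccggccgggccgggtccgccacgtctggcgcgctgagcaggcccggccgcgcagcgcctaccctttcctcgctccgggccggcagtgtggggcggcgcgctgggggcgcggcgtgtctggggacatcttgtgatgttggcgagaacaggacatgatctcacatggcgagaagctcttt
EBF1 promoter: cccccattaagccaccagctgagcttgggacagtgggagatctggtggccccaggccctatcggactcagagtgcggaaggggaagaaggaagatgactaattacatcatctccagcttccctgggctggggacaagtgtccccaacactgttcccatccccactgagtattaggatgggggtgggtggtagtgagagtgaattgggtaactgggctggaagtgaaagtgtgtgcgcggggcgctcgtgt
BCL6 promoter: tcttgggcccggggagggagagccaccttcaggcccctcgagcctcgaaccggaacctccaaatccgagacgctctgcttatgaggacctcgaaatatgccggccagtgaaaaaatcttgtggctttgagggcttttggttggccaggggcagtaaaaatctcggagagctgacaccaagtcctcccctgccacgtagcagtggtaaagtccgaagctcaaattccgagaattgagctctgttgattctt
SPIB promoter: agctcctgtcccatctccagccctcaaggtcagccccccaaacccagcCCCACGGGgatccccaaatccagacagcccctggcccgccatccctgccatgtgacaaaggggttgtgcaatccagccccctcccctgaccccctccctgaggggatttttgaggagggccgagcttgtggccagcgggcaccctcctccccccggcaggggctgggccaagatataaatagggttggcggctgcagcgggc
IRF8 promoter: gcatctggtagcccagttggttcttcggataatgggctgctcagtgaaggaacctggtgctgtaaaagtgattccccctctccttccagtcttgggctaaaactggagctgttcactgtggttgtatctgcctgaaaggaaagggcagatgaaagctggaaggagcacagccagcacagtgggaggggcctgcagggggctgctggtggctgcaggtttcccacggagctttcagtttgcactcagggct

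Promoter windows of 300 bases, which add the first 50 bases after the start, were given for 8 of the 10 members in 10 windows, and SPI1 and POU2AF1 had none. Both strands were searched for the octamer ATGCAAAT, found in 1.77% of 35116 windows of this length, the EBF motif CCCNNGGG (19.1%), the E-box CAGGTG of TCF3 (20.6%), the ETS motif GAGGAAGT (2.59%) and TTCCTAGAA, a BCL6 motif added after the data were seen (0.373%). SPIB held the EBF motif 202 bases before the start. The E-box was found in both windows of IRF8, 36 bases after the start used above and 150 bases before the other, which is the same place in the genome. BCL6 held the BCL6 motif on the opposite strand 37 bases after the start, within the 30 bases at chr3:187745419-187745448, again on the minus strand, with the motif in capitals.
BCL6 site: tggtgatgcaagaagtTTCTAGGAAaggcc
No window held more than 1 match, so no motifs overlapped. A match describes letters in these windows only.

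The question of the comparison between the diseases was which of the factors were lost in MM lines and which were kept. Of the 38 probe-sets, 21 were lower in MM (adjusted p under 0.05, limma), against 5.87% of all 54613 tested probe-sets. None was higher at the same threshold, against 5.64%, and 17 did not pass. At an unadjusted p under 0.05 (limma), none of the 38 was higher either. By lead probe-set, 8 of the 10 genes were lower in MM and only BACH2 and POU2AF1 did not pass. The median log2 difference, MM minus DLBCL, was −1.09 over the 38 probe-sets and −3.19 over the 10 lead probe-sets, beside −0.02 over all probe-sets. The 2 groups of lines did not overlap for 5 of the 38 probe-sets, 4 of EBF1 and 1 of PAX5, against 0.114% of all probe-sets. In arrays of bulk RNA, fewer cells that express a gene and less of its RNA per cell cannot be told apart.

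The lineage factors EBF1 and PAX5 separated the diseases completely. PAX5 had a log2 expression from 10.17 to 11.56 with a median of 10.99 in the DLBCL lines, and from 3.35 to 7.15 with a median of 4.29 in the MM lines. The groups did not overlap, and the highest MM value belonged to KMS-12-BM, with NCI-H929 next at 4.82 and the sister line KMS-12-PE at 3.90. The means were 11.01 ± 0.40 (SD, n = 14) and 4.42 ± 0.95 (SD, n = 12), and the difference of −6.58 (SE 0.27) passed the test (adjusted p = 4.1e-15, limma). Since 11 of the 12 MM lines were under their array median, no fold is given. The other PAX5 probe-set was nearly flat, with means of 6.33 and 6.04 and a difference of −0.29 that passed the test (adjusted p = 0.0024, limma).

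EBF1, the pioneer factor of the early B cell, ranged from 8.39 in RIVA to 11.60 in OCI-Ly19 with a median of 9.84 over the DLBCL lines. In the MM lines it lay between 3.31 and 3.86 with a median of 3.50. All MM lines were low and close to each other, at an SD of 0.17. By lead probe-set, EBF1 was the only member whose MM lines all lay at or under the median of their own array. These array medians were between 5.65 and 5.71 and serve as a mark for dim values, not as a detection limit. The difference was −6.53 (SE 0.26, adjusted p = 4.1e-15, limma), and the other 3 EBF1 probe-sets had differences of −5.77, −4.37 and −1.62, all without overlap.

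TCF3, which encodes the E proteins of the early B cell, stayed above the array median in all 26 lines by its lead probe-set. Its lead probe-set ranged from 10.02 to 11.72 with a median of 11.05 in DLBCL and from 8.63 to 11.08 with a median of 10.41 in MM. The ranges overlapped for 9 of the 12 MM lines, and RPMI-8226 (8.63) and KMS-12-BM (8.98) were the lowest. The difference of −0.73 (SE 0.24) passed narrowly (adjusted p = 0.047, limma), 2 of the 14 TCF3 probe-sets were lower, and the call was lost in 18 of the 26 fits that left out 1 line, where the adjusted p ran from 0.027 to 0.078 over all 26.

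**Figure D1:**
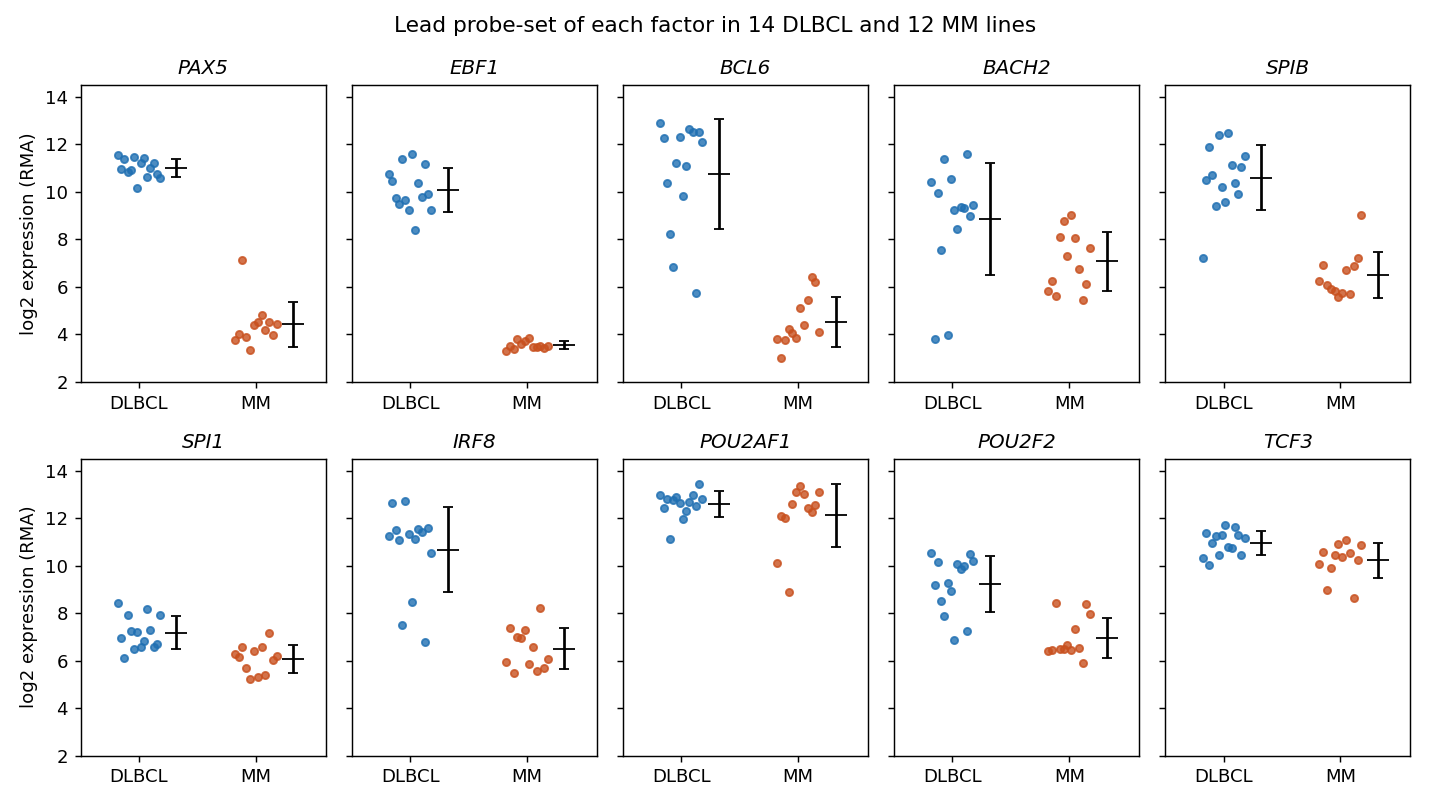
Log2 expression (RMA, y axis) of the lead probe-set of each factor in the 14 DLBCL lines (blue) and 12 MM lines (orange), 1 point per cell line, with the mean and SD as black bars. PAX5 and EBF1 show no overlap between the diseases, whereas POU2AF1 lies near the top of the scale in nearly all lines.

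The repressors of the germinal centre differed from each other. BCL6 ranged from 5.74 to 12.89 with a median of 11.65 in the DLBCL lines and from 3.01 to 6.41 with a median of 4.16 in the MM lines. RPMI-8226 (6.41) and U-266 (6.19) were the MM lines above their array median, and they overlapped with the lowest DLBCL line, SU-DHL-8. The difference was −6.22 (SE 0.70, adjusted p = 1.7e-06, limma), and all 3 BCL6 probe-sets were lower in MM, by 6.22, 4.00 and 2.51 on the log2 scale.

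BACH2, the partner of the small MAF proteins that delays plasma cell differentiation, had a log2 expression from 3.81 to 11.61 with a median of 9.35 in DLBCL and from 5.47 to 9.05 with a median of 7.03 in MM. All 12 MM lines lay within the range of the DLBCL lines, since FARAGE (3.81) and OCI-Ly3 (3.98) were lower than any MM line, and 10 MM lines were above their array median. The difference of −1.78 (95% CI −3.29 to −0.27) did not pass (adjusted p = 0.119, limma). It passed without FARAGE (−2.17, adjusted p = 0.027) or without OCI-Ly3 (−2.16, adjusted p = 0.030), while the second probe-set of BACH2 gave −1.65 (adjusted p = 0.061).

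Of the ETS and interferon response factors, SPIB, an ETS protein of mature B cells, ranged from 7.20 to 12.47 with a median of 10.62 in DLBCL and from 5.57 to 9.02 with a median of 6.17 in MM. AMO-1 (9.02) was the only MM line within the DLBCL range, and U-266 came next at 7.19. The difference was −4.11 (SE 0.46, adjusted p = 1.5e-06, limma), and the other SPIB probe-set fell by 2.34, again with AMO-1 as the highest MM line, at 6.71.

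IRF8, which takes part in germinal centre gene expression as a partner of ETS proteins, ranged from 6.78 to 12.70 with a median of 11.29 in DLBCL and from 5.49 to 8.22 with a median of 6.31 in MM. The groups overlapped through 5 MM lines and the low DLBCL lines SU-DHL-8 and NU-DUL-1. The difference was −4.17 (SE 0.55, adjusted p = 1.2e-05, limma), measured by 1 probe-set, and 10 MM lines stayed above their array median.

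SPI1 (PU.1), the ETS factor that B cells share with myeloid cells, had its MM lines near the array median. It ranged from 6.12 to 8.43 with a median of 7.08 in DLBCL and from 5.21 to 7.18 with a median of 6.19 in MM, and 7 of the 12 MM lines lay within the DLBCL range. The difference of −1.09 (SE 0.25) passed (adjusted p = 0.0046, limma) and was smaller than those of SPIB and IRF8, each on its own probe-set.

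The octamer factor and its coactivator did not move alike. POU2F2 (OCT2) ranged from 6.88 to 10.52 with a median of 9.56 in DLBCL and from 5.89 to 8.41 with a median of 6.52 in MM. KMS-12-BM (8.41), U-266 (8.37) and AMO-1 (7.98) were the highest MM lines, and 4 MM lines lay within the DLBCL range. The difference was −2.27 (SE 0.40, adjusted p = 4.0e-04, limma), and 6 of the 7 POU2F2 probe-sets were lower in MM, with differences between −2.67 and −1.10 among those 6.

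POU2AF1 (OBF1), the coactivator, was kept. It ranged from 11.11 to 13.45 with a median of 12.72 in DLBCL and from 8.91 to 13.34 with a median of 12.48 in MM. Only KMS-12-PE (8.91) and KMM-1 (10.09) were below the DLBCL range, and all 12 MM lines were above their array median. The difference of −0.47 (95% CI −1.24 to 0.30) did not pass (adjusted p = 0.459, limma) and was −0.18 without KMS-12-PE, so a fall by more than 1.24 lies outside the interval while a smaller one does not.

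**Figure D2:**
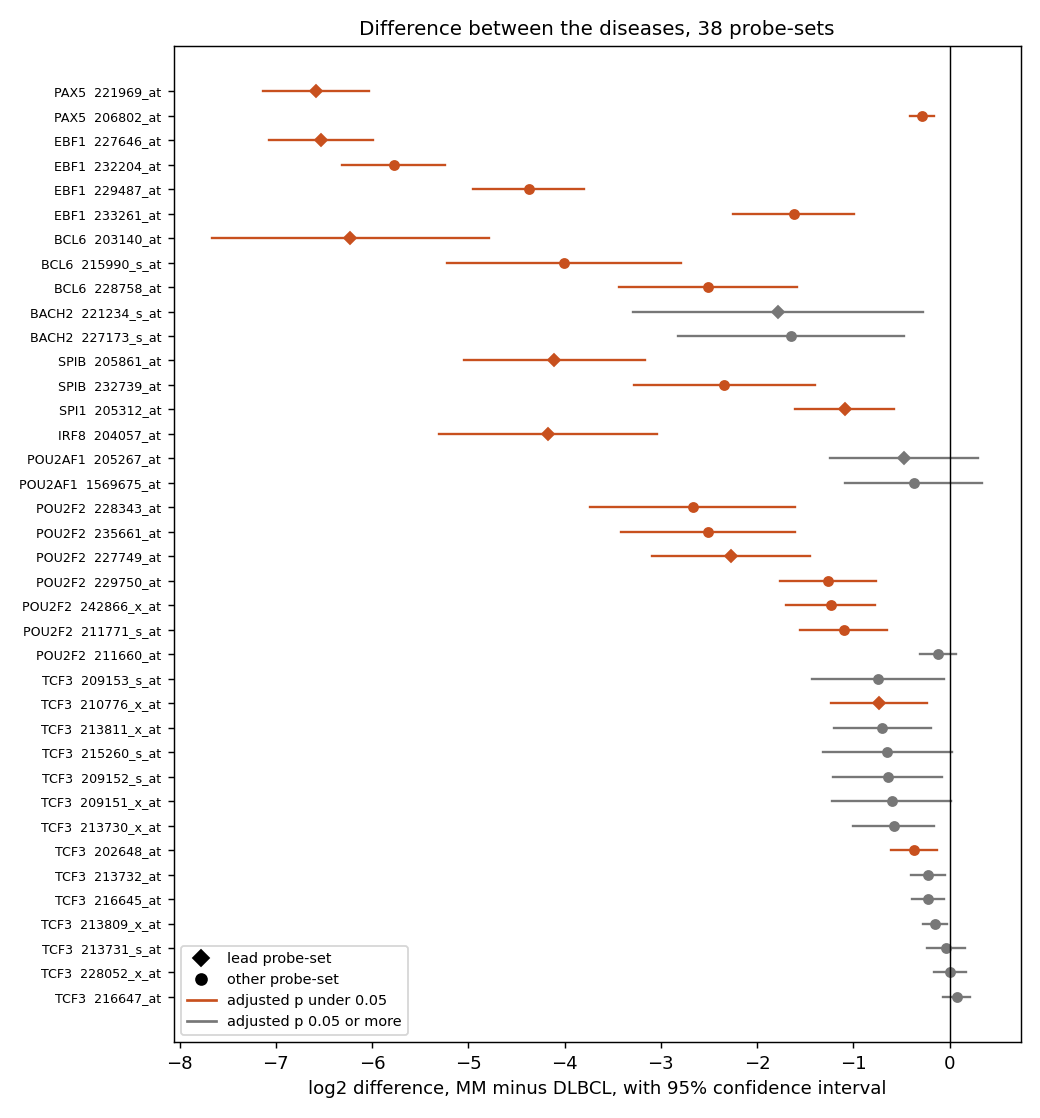
Log2 difference, MM minus DLBCL, of all 38 probe-sets (x axis) with 95% confidence intervals, where diamonds are lead probe-sets and orange marks an adjusted p under 0.05. The points of EBF1, BCL6, SPIB and IRF8 lie well below 0, and the 14 TCF3 probe-sets lie between −0.75 and 0.07.

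By the number of lead probe-sets above the array median, all 10 factors were above in 12 DLBCL lines and 9 in FARAGE and OCI-Ly3, where BACH2 was below. In the MM lines between 5 and 8 factors were above, with OPM-2 at 5 and U-266 at 8. TCF3, POU2AF1 and POU2F2 were above in all 12 MM lines, SPIB in 11, IRF8 and BACH2 in 10, SPI1 in 9, BCL6 in 2, PAX5 in 1 and EBF1 in none. These counts set each probe-set against its own array and do not order the genes by amount of RNA. They hold for the lead, the brightest probe-set of a gene. The second probe-set of SPIB and that of POU2AF1 were each above in 1 MM line. The other POU2F2 probe-sets were above in 4 to 12 MM lines, those of TCF3 in 0 to 12, and those of BCL6 in 0 and 6.

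Genes that work with the factors were read from lists, each gene by its lead probe-set. Of the B-cell receptor and coreceptor genes, many of them bound by PAX5 and EBF1, 9 of 11 measured fell in MM. Among all tested probe-sets, 5.87% passed as lower and 5.64% as higher. All 11 differences of the list were below 0, and their median was −3.76. MS4A1, which encodes CD20, fell by 7.30, CD37 by 5.02, CD79A by 4.89 and BLNK, the adaptor of the receptor, by 4.25, while CR2 and FCER2 did not pass. Of 8 measured genes that BCL6 is known to repress, 2 were higher, against 5.64% of all probe-sets, CCND2 (4.91) and PRDM1 (1.21). Another 2 were lower, against 5.87%, CD69 (−4.22) and CD80 (−1.64). The other 4 did not pass, and the median of the 8 was −0.59. These genes did not move in 1 direction. BCL6 was lower in every MM line than in all but 1 of the DLBCL lines, and whether its level bears on these genes was not tested.

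Of 16 measured relatives and partners, 2 were higher and 2 lower, against 5.64% and 5.87% of all tested probe-sets. IRF4, the factor of plasma cells and activated B cells, rose by 2.61, and BCOR, a corepressor of BCL6, rose by 0.74. ETS1, a relative of SPI1 and SPIB, fell by 2.79, and IKZF1 (Ikaros) fell by 1.66. The other 12 did not pass, among them the E protein genes TCF4 (−0.56) and TCF12 (−0.07), relatives of TCF3, and BACH1 (0.43), the relative of BACH2. All 3 plasma cell factors, PRDM1, XBP1 (2.59) and IRF4, were higher in MM, against 5.64% of all tested probe-sets.

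The labelled cell types were checked with markers. All 4 measured B-cell markers were lower in MM, against 5.87% of all tested probe-sets, and all were also in the receptor list above. Of the 5 plasma cell markers 4 were higher, against 5.64%, led by SDC1 (CD138), which rose by 5.07. PRDM1 and XBP1 among them were already given as plasma cell factors, and CD38 did not pass (−0.16). Of 5 T-cell, 6 myeloid and 4 stromal markers none passed between the diseases (limma, with 1, 1 and 1 at an unadjusted p under 0.05), and CD3D, CD14, CSF1R, MPO, ELANE and COL3A1 were at or under the array median in every line, whereas CD5, CSF3R, COL1A1 and PECAM1 were above it in all 26. The mean log2 level of the 6 myeloid markers ran from 4.84 to 5.24 over the DLBCL lines and from 4.84 to 5.22 over the MM lines, and that of the 5 T-cell markers from 5.20 to 5.68 and from 5.24 to 5.91.

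Among the DLBCL lines the factors varied to different degrees, described here without a test. The SD over the 14 lines was 2.36 for BACH2, 2.30 for BCL6, 1.80 for IRF8, 1.37 for SPIB and 1.19 for POU2F2, which placed these 5 lead probe-sets at percentiles 99.6, 99.5, 98.4, 96.3 and 94.8 of all probe-sets. EBF1 followed at 0.92 and SPI1 at 0.70. POU2AF1 (0.55), TCF3 (0.51) and PAX5 (0.40) varied least, with PAX5 at percentile 61.3. PAX5, which did not overlap between the diseases, had the smallest SD of the 10 lead probe-sets among the lymphoma lines.

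SU-DHL-8, NU-DUL-1 and OCI-Ly19 stood apart from the other DLBCL lines in several factors at once. BCL6 was 5.74, 6.84 and 9.82 in these lines, IRF8 was 6.78, 7.50 and 8.46, and POU2F2 was 7.24, 7.88 and 6.88, whereas EBF1 was 11.17, 11.37 and 11.60. They were the 3 lowest lines for IRF8 and for POU2F2 and the 3 highest for EBF1, while NU-DHL-1, with a BCL6 of 8.22, came between them for BCL6. The low BCL6 of SU-DHL-8 and NU-DUL-1 was seen on the other probe-sets too, where the next in mean level gave 4.98 and 5.69 beside a highest MM value of 5.54. PAX5 was 11.22, 10.92 and 11.21 in the same lines, and POU2AF1 was 12.50, 12.77 and 11.97, within the range of the other lines.

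FARAGE and OCI-Ly3, the lines with the lowest BACH2, had the highest IRF8 (12.64 and 12.70). The second BACH2 probe-set gave 4.83 and 5.19 in them, the 2 lowest values of the DLBCL lines. DB had the lowest SPIB, 7.20, together with the highest PAX5 (11.56), BCL6 (12.89), SPI1 (8.43) and POU2F2 (10.52), and RIVA had the highest SPIB (12.47) with the lowest EBF1 (8.39).

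Over the 14 DLBCL lines, the lead probe-set of BCL6 had a Pearson correlation of 0.81 with IRF8 and 0.77 with POU2F2, and IRF8 with POU2F2 had 0.74. Spearman's rho was lower, at 0.62, 0.68 and 0.44. EBF1 and SPIB ran in opposite order (r = −0.67, rho = −0.73), as did BACH2 and IRF8 (−0.66 and −0.57). All points share the arrays and their normalisation, and the 45 pairs are given as a description.

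For the 5 factors with an SD of at least 1 over the DLBCL lines, the probe-sets most like them were sought among 3699 that varied as much. Nearest to IRF8 were MS4A1 (r = 0.944 over 14 lines) and NAPSB (0.927), and nearest to BCL6 were CPNE3 (0.927) and SORL1 (0.927), a sorting receptor. POU2F2 was followed by CDC42EP3 (0.886) and CD86 (0.882), the costimulatory ligand, BACH2 by GLCCI1 (0.879) and SARS1 (0.864), and SPIB by FNBP1 (0.830) and PMAIP1 (0.829), which encodes the pro-apoptotic protein NOXA. With so many probe-sets searched over 14 lines, such values describe these lines only.

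**Figure D3:**
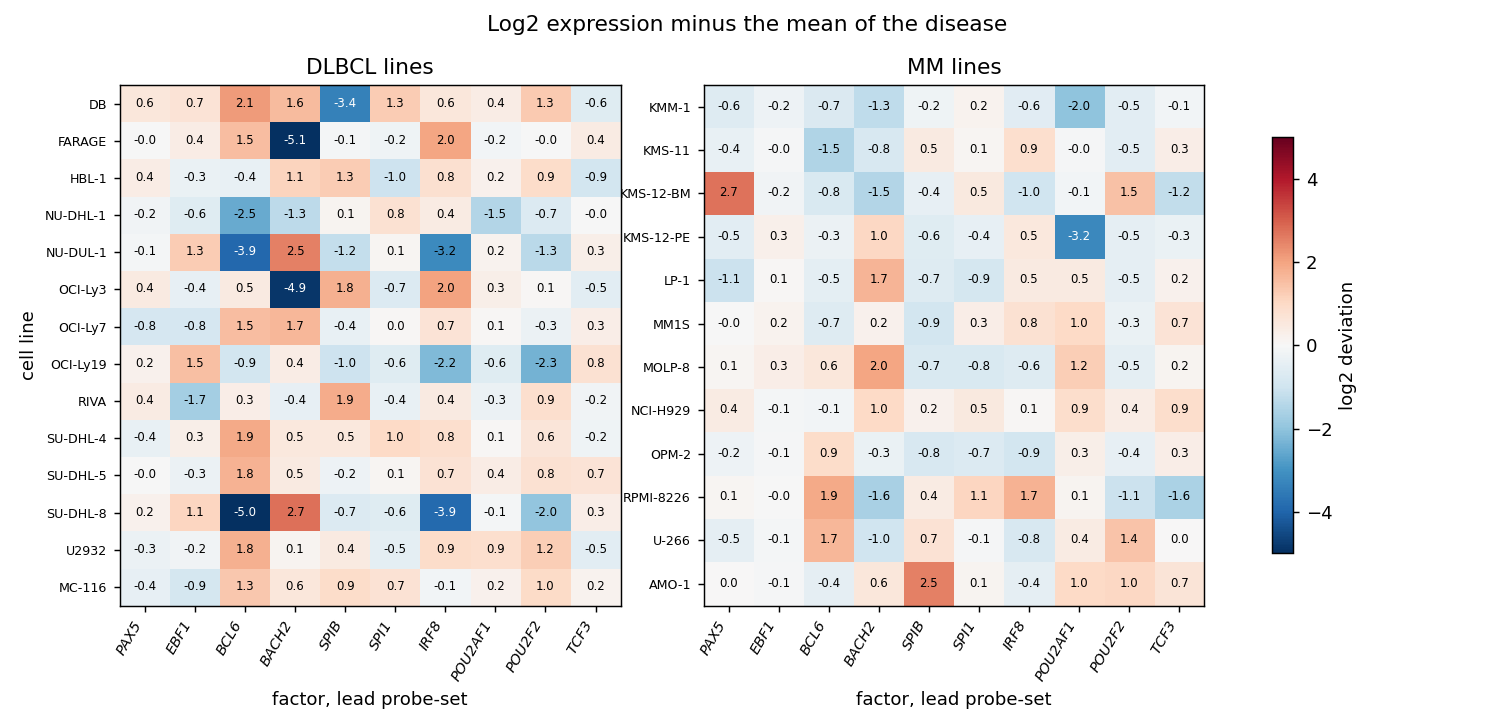
Log2 expression of each lead probe-set minus the mean of its disease, with the factors on the x axis and the cell lines on the y axis, in DLBCL (left) and MM (right). The colour scale ends at 5 in both directions. SU-DHL-8 and NU-DUL-1 are low in BCL6 and IRF8, FARAGE and OCI-Ly3 are low in BACH2, and among the MM lines KMS-12-BM stands out in PAX5, AMO-1 in SPIB and KMS-12-PE in POU2AF1.

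The last question was whether the factors were related to drug response within a disease. In the DLBCL lines AUC0 ranged from 165 to 346 for C, from 167 to 327 for H and from 54 to 131 for O, and from 242 to 395, from 227 to 356 and from 90 to 187 in the MM lines. All 12 MM lines were tested with each drug, and of the DLBCL lines 12 were tested with C, 14 with H and 12 with O. No member probe-set passed in any of the 6 comparisons (limma, change in log2 expression per 100 units of AUC0), where 0% of all probe-sets passed in 5 and 0.00183%, a single probe-set, passed for H within MM. At an unadjusted p under 0.05, there were 1 of the 38 probe-sets for cyclophosphamide, 11 for doxorubicin and 2 for vincristine in DLBCL, against 4.95%, 5.5% and 4.3% of all probe-sets. In MM it was 5, 2 and 3, against 3.44%, 4.17% and 4.66%. Probe-sets of 1 gene share their lines, so these counts are not independent.

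The 11 probe-sets for H within DLBCL were all 4 of EBF1, 3 of the 7 of POU2F2 and 4 of the 14 of TCF3, and the lowest adjusted p among all member probe-sets was 0.883. EBF1 ran from 11.60 in OCI-Ly19, the line with the lowest AUC0 of H (167), to 8.39 in RIVA, the line with the highest (327). The slope of its lead probe-set was −1.07 per 100 units (SE 0.38, unadjusted p = 0.015, adjusted p = 0.883, limma), and lines of low AUC0 tended to the higher values. POU2F2 had the opposite slope, 1.39 (SE 0.50, unadjusted p = 0.0144, adjusted p = 0.883, limma), with all 7 probe-sets positive, and TCF3 had −0.56 (SE 0.23, unadjusted p = 0.0257, adjusted p = 0.883, limma). The 3 lines with the highest EBF1 and the lowest POU2F2, OCI-Ly19, SU-DHL-8 and NU-DUL-1, had an AUC0 of 167, 222 and 224, all under the median of 262.5. Without OCI-Ly19 and FARAGE, the 2 lines farthest from that median, the slopes were −0.93, 1.23 and −0.42. In that fit 3 member probe-sets, rather than 11, had an unadjusted p under 0.05 (limma). Without OCI-Ly19 alone there were 4, so the count rested largely on that line. The other fits that left out 1 line gave between 10 and 15.

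**Figure D4:**
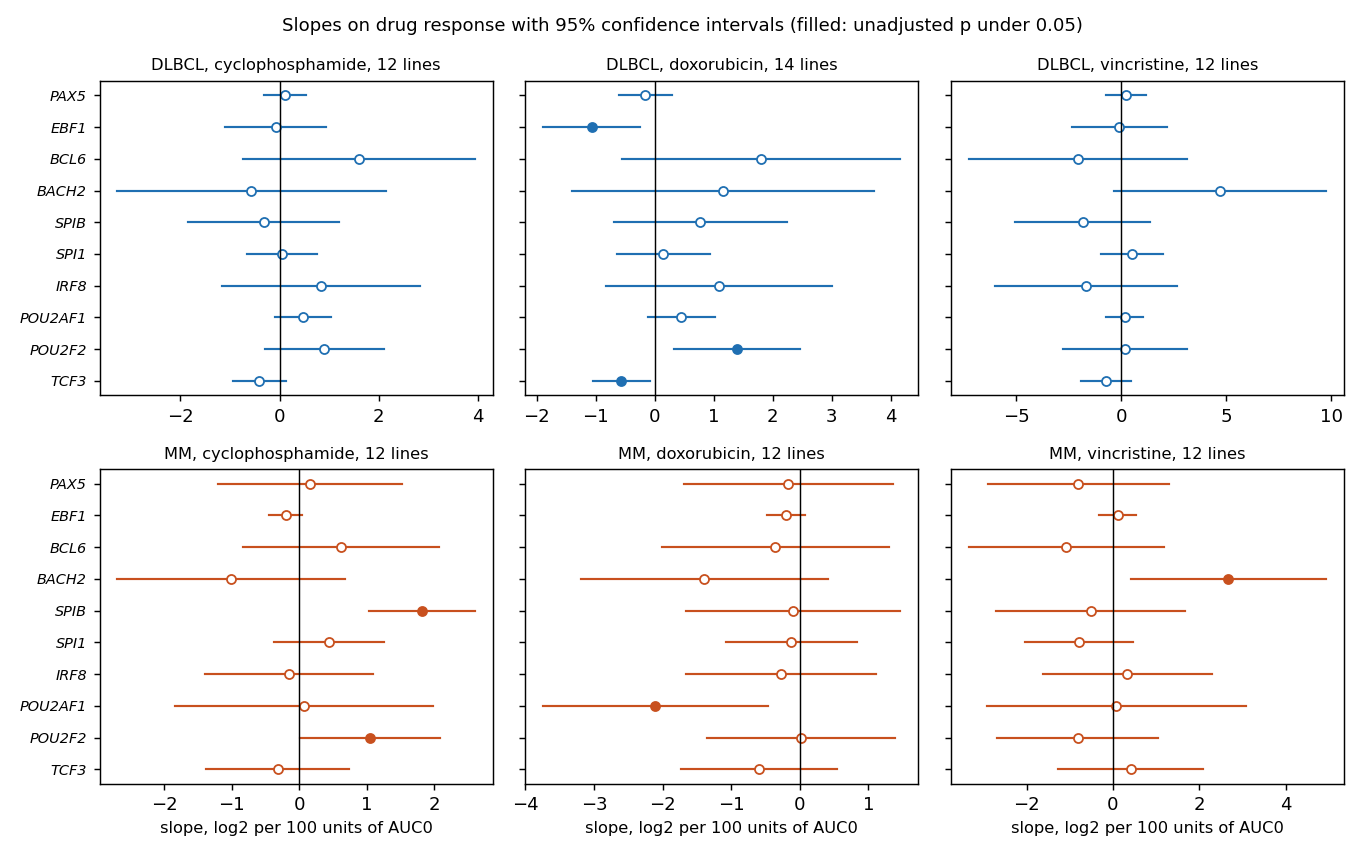
Slope, as the change in log2 expression per 100 units of AUC0 (x axis, scaled separately in each panel) for the lead probe-set of each factor, with 95% confidence intervals, in DLBCL (top) and MM (bottom) for the 3 drugs. Filled points have an unadjusted p under 0.05, as EBF1, POU2F2 and TCF3 do for doxorubicin in DLBCL, and none of the slopes passed after adjustment.

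In the MM lines, SPIB had the lowest p of all member probe-sets. Its log2 expression was 5.57 in MM1S and 5.74 in MOLP-8, the lines of the lowest AUC0 of C (242 and 249), and 7.19 in U-266 and 9.02 in AMO-1, the lines of the highest (376 and 395). The slope was 1.81 per 100 units (SE 0.36, unadjusted p = 3.1e-04, adjusted p = 0.99998, limma), and 1.18 without AMO-1. For SPIB, a fit of both diseases with a term for disease gave 0.44. POU2F2 had a slope of 1.04 on C (SE 0.47, unadjusted p = 0.048, limma). BCL6, PAX5, IRF8 and SPI1 had no lead slope at an unadjusted p under 0.05 for any drug in either disease.

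For H within MM, POU2AF1 had a slope of −2.11 (SE 0.75, unadjusted p = 0.016, adjusted p = 0.999, limma), where the lowest lines, KMS-12-PE (8.91) and KMM-1 (10.09), had an AUC0 of 340 and 346. It was −1.55 without KMS-12-PE, and the other, dim probe-set of POU2AF1 gave −0.33. For O within MM, BACH2 had a slope of 2.67 (SE 1.03, unadjusted p = 0.0246, adjusted p = 0.982, limma), which was 1.35 without LP-1 and MOLP-8, the 2 lines farthest from the median AUC0. The DLBCL slope of BACH2 on O was also positive, 4.70 (SE 2.31, unadjusted p = 0.065, adjusted p = 0.990, limma), and FARAGE and OCI-Ly3, the lines with the lowest BACH2, had an AUC0 of 56 and 75. A fit of both diseases with a term for disease gave 3.65 (adjusted p = 0.886, limma).

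The slopes of the 2 diseases were compared directly. No member probe-set passed for any drug (limma), as was the case for 0% of all probe-sets, and at an unadjusted p under 0.05 there were 1 for C, 4 for H and 0 for O, against 4.56%, 5.12% and 4.02%. POU2AF1 had the lowest p for H among the lead probe-sets, with a difference of −2.56, MM minus DLBCL (SE 0.73, unadjusted p = 0.0018, adjusted p = 0.851, limma), from a slope of 0.45 in DLBCL and −2.11 in MM. The others counted for H were EBF1 probe-sets (unadjusted p = 0.0078, 0.0152 and 0.0380, limma). On these no MM line was above its array median, so their differences mostly repeat the slopes in DLBCL. SPIB differed by 2.13 for C (SE 0.92, unadjusted p = 0.030, adjusted p = 0.9997, limma), from −0.32 in DLBCL and 1.81 in MM. AUC0 was taken as a fixed number, although the labels give bounds that reach from 32 to 121 around the 62 of MC-116 for O.

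**Figure D5:**
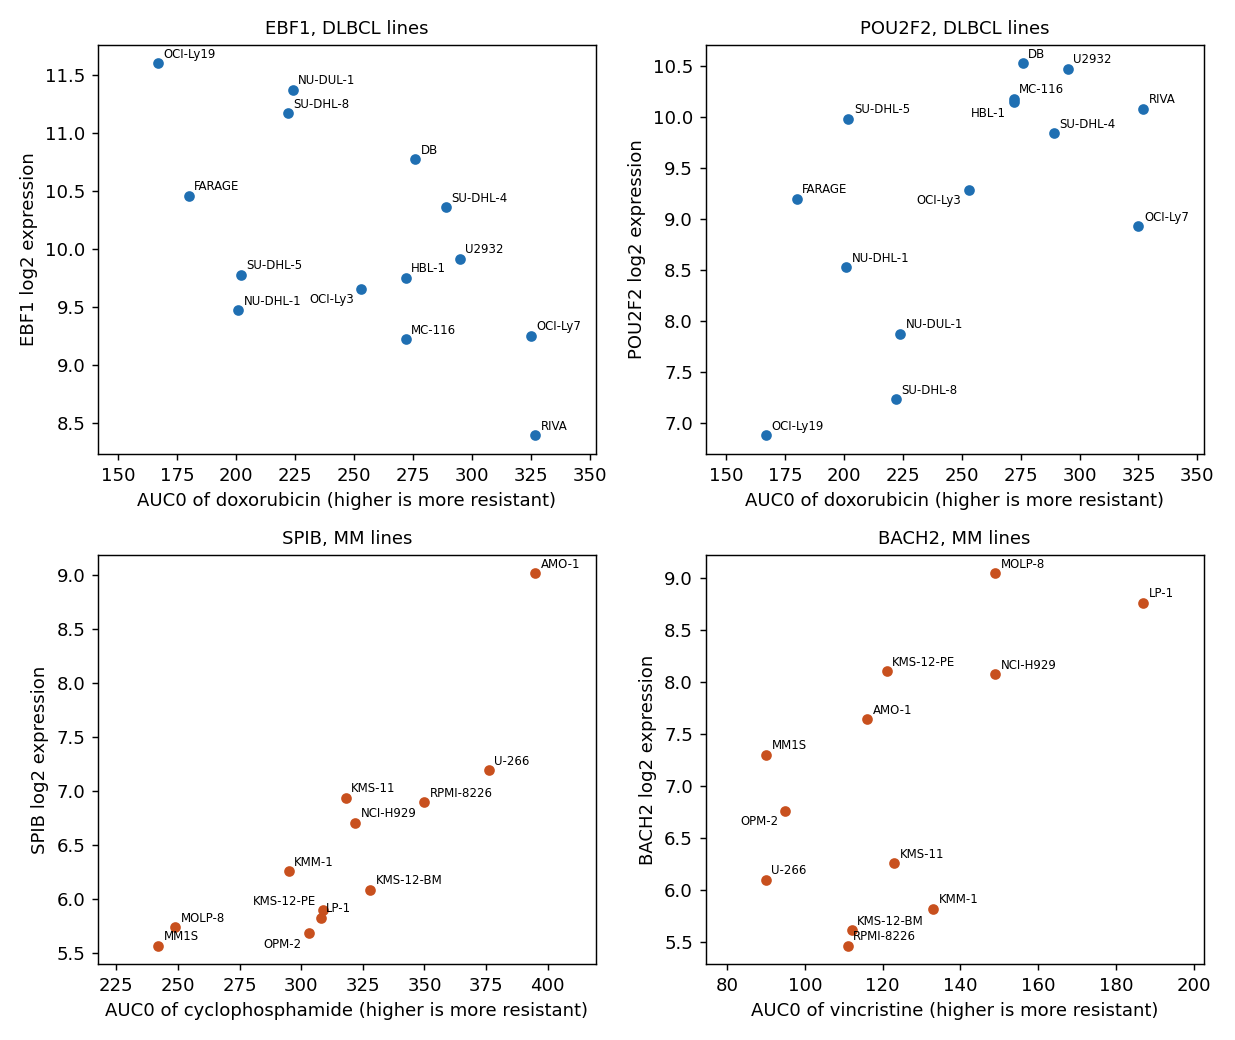
Log2 expression (y axis) of EBF1 and POU2F2 against the AUC0 of doxorubicin in the 14 DLBCL lines, and of SPIB against that of cyclophosphamide and BACH2 against that of vincristine in the 12 MM lines, 1 point per line. The panels were chosen after the slopes were seen, and none of the 4 slopes passed after adjustment. AMO-1 stands alone at the top right of the SPIB panel.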

How the data were processed

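RNA of 26 untreated cell lines was hybridised, 1 array per line. The authors deposited log2 values made with RMA (Bioconductor package affy, with R 3.0.1 per the labels), a step the methods place before the panel was split by disease. Whether all arrays were normalised in 1 run is not said outright, and separate runs would bear on the difference between the diseases. The 62 control probe-sets were left out, and gene symbols came from the annotation of the array. AUC0 was copied from the labels, where the class for doxorubicin stands under the tag of cyclophosphamide and was read by its place after the doxorubicin AUC0. Mafosfamide stood in for cyclophosphamide in the screen. Differences, slopes within a disease and their difference between diseases were fitted in R 4.3.3 with limma 3.58.1 over 54613 probe-sets, with Benjamini-Hochberg adjustment over all of them and a threshold of 0.05, and the fit was tested on simulated data. No technical replicates, batches or scan dates are given, so precision is limited by how many arrays there are. Values after ± are SDs.

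The members, the gene lists and the tests were chosen with earlier results of these data known. Named genes are the 10 members, list genes that passed, by lead probe-set, and the 2 genes most like each member that varied among the DLBCL lines. Some genes of these lists are not reported here. Genes named that did not pass were chosen as relatives or markers after their values were seen. Alternatives were 1 probe-set per gene, arrays centred on their medians, dim probe-sets left out, another variance prior, a permutation test (100000 resamples, two-sided), classes in place of AUC0, both diseases in 1 fit, and lines left out. Python 3.11.15 with pandas 2.3.3, scipy 1.17.1 and matplotlib 3.10.9 was used for promoters, permutations and figures.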

Additional observations from a re-analysis of the deposited data

How the results depend on the processing

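No paired analysis was possible, since each line was measured on 1 array and belongs to 1 disease. With 1 probe-set per gene, the one that varied most among the DLBCL lines, 7 of the 10 member probe-sets were lower in MM, beside 21 of 38, and 3483 rather than 6285 probe-sets passed in all, since fewer were tested. With each line left out in turn, the number of member probe-sets lower in MM lay between 19 and 24, and that of lead probe-sets between 7 and 9. Without KMS-12-PE, which shares its donor with KMS-12-BM, 19 were lower. No member probe-set was higher in MM and none passed for a slope or a slope difference under any alternative run. The differences of PAX5, EBF1, BCL6, SPIB, SPI1, IRF8 and POU2F2 kept their direction and passed in every fit. TCF3 no longer passed with 1 probe-set per gene (−0.75, adjusted p = 0.163), without MC-116 and AMO-1 (−0.78, adjusted p = 0.0505), without KMS-12-PE (−0.70, adjusted p = 0.071) and in 18 of 26 fits without 1 line. BACH2 passed an unadjusted permutation test (p = 0.0286), as it did before adjustment in the main fit (unadjusted p = 0.0225, limma). No result reversed. The cause of these changes was not tested beyond the number of probe-sets and lines. With 12 to 14 lines per disease, the intervals of the slopes are wide, and a slope that did not pass is not shown to be 0.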

Other observations

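KMS-12-BM differed from its sister line KMS-12-PE in several factors. PAX5 was 7.15 and 3.90, POU2AF1 was 11.999 and 8.91, POU2F2 was 8.41 and 6.48, BACH2 was 5.62 and 8.10 and IRF8 was 5.49 and 7.01 on the log2 scale, with 1 array for each line, so that no test of the difference exists.

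Probe-sets of 1 gene followed each other to different degrees over the 14 DLBCL lines. The second BACH2 probe-set had a Pearson correlation of 0.990 with the lead, the other 2 of BCL6 had 0.987 and 0.929, and the closest of POU2F2 had 0.996, whereas the second of PAX5 had 0.013, the farthest of POU2F2 had 0.236 and 1 of the 2 TCF3 probe-sets lower in MM had 0.016. In the MM lines, where EBF1 was dim, its other probe-sets had correlations between −0.33 and −0.14 with the lead, and those of BACH2 had 0.950.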
